A study of Arabidopsis thaliana with 12 samples.

Results

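The response of *siz1-2* roots to auxin was taken as the difference between 3 libraries of *siz1-2* roots given indole-3-acetic acid (IAA) and 3 libraries of *siz1-2* roots kept on MS medium. It was followed over 18743 of the 23853 genes of the deposited table, namely every gene with at least 1 FPKM in at least 3 of the 12 libraries of the series. FPKM are fragments scaled by transcript length and by the mapped total of the library, so levels of different genes are compared per length. The series holds 4 groups of 3 libraries each, Col-0 and *siz1-2* *Arabidopsis thaliana* roots, each on MS and with IAA. The IAA groups were given 0.5 µM IAA for 3 h, and all seedlings were 7 days old by the labels and a day older in the study's methods. The *siz1-2* allele is a T-DNA insertion in SIZ1 in the Col-0 background and is the only mutant allele sequenced. The labels name no other inserted construct. Col-0 libraries share none of the *siz1-2* libraries and entered here for the common estimate of the spread and for a comparison at the end. Nothing in the labels says what separates the replicates, so p-values measure the spread between these libraries, which may be technical.

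IAA is the main natural auxin. It brings the F-box receptors of the TIR1/AFB family together with the Aux/IAA repressors, which are then marked with ubiquitin and degraded. This frees the auxin response factors (ARFs) to act on their targets. Among the classical early targets are the Aux/IAA genes themselves, the GH3 genes, whose enzymes join IAA to amino acids, and the SAUR genes of cell growth. In the root, ARF7 and ARF19 act through the LATERAL ORGAN BOUNDARIES DOMAIN (LBD) factors LBD16, LBD18 and LBD29 in the formation of lateral roots (LRs). SIZ1 is a SUMO E3 ligase, which attaches the small modifier SUMO to other proteins.

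SIZ1 (AT5G60410) was measured at 14.8, 13.5 and 13.6 FPKM in the *siz1-2* libraries on MS and at 16.6, 12.8 and 14.1 FPKM with IAA. Among the Col-0 libraries it read 26.2, 23.7 and 21.5 FPKM on MS and at 21.8, 24.7 and 28.0 FPKM with IAA, so all 6 mutant libraries were below all 6 Col-0 libraries. SIZ1 transcript was lower in *siz1-2* on MS (log2 −0.74, adjusted p = 0.00563 from limma) but not absent, and its change with IAA in *siz1-2* was 0.04 on the log2 scale (adjusted p = 0.848). FPKM carry no counts, so the absolute depth is unknown. Relative depth, read from the steps between low values, was 0.929 to 1 times that of the deepest *siz1-2* library. Root markers were present, with the Casparian strip gene CASP1 at a mean of 181 FPKM and the root hair gene RHS19 at 172 FPKM on MS. Markers of green tissue were at a median of 5.28, 5.93 and 7.52 FPKM on MS and of 4.59, 27.3 and 4.01 FPKM with IAA. Replicate 2 of *siz1-2* with IAA thus stood above the other libraries of the mutant, and its sum over the 41 tested markers was 1632 FPKM against 265 to 672 FPKM in the other 5. Without it 1154 genes were called in place of 1096, with 1035 in common.

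A gene was called a differentially expressed gene (DEG) at an adjusted p under 0.05 with a log2 fold change of at least 1 in either direction, on log2(FPKM + 0.5), which understates the change of genes with low values. By this rule 1096 genes (5.85% of those tested) responded to IAA in *siz1-2*, 585 of them higher (3.12%) and 511 lower (2.73%). The median change was 1.42 among the higher DEGs and −1.37 among the lower ones, beside 0.10 over all genes tested. Among the DEGs, 140 were higher by at least 2 on the log2 scale and 81 lower by at least 2. A change of at least 4 was seen in 14 higher and 6 lower DEGs. The 3 IAA libraries and the 3 MS libraries did not overlap in 1089 of the 1096 DEGs and in 47.5% of all genes tested. Of the higher DEGs 144 had a mean below 1 FPKM on MS, and 5 of them were listed at 0 in all 3 MS libraries.

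**Figure D1:**
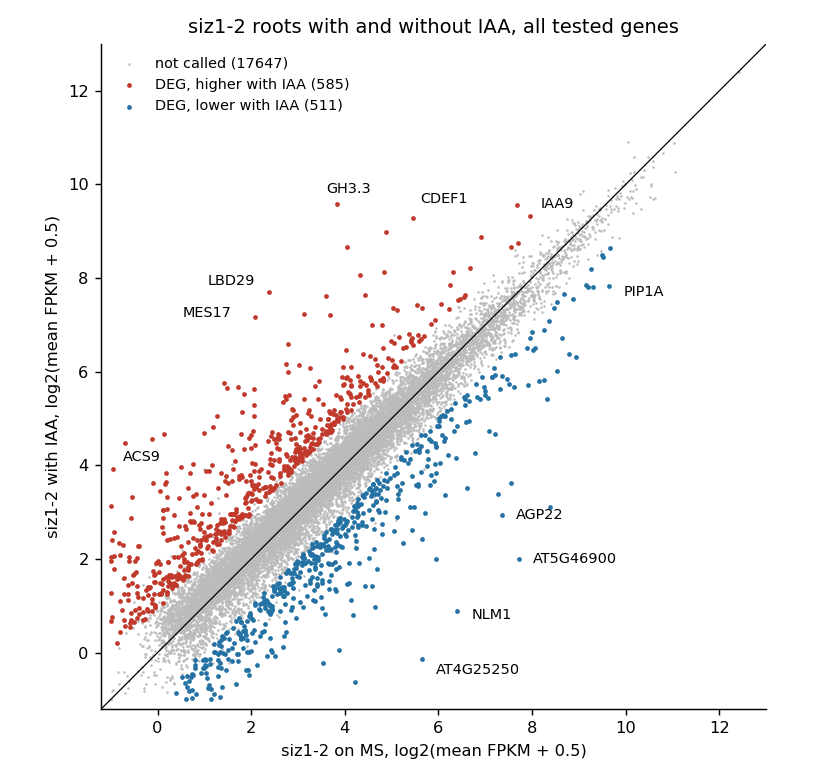
Mean level of each of the 18743 tested genes in *siz1-2* on MS (x axis) and with IAA (y axis), both as log2(mean FPKM + 0.5). The 585 higher DEGs are red, the 511 lower DEGs blue and the other genes grey, and the largest rises and falls lie far from the diagonal on which the levels are equal.

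The share of all FPKM held by the DEGs moves by the way they were chosen and is given as a description. The 585 higher DEGs held 0.949%, 0.958% and 0.971% of all FPKM in the 3 MS libraries and 3.34%, 3.34% and 3.76% with IAA. The 511 lower DEGs moved from 4.02%, 4.35% and 3.66% on MS to 1.38%, 1.53% and 1.31% with IAA. With no limit on the fold, 1839 genes rose (9.81%) and 1510 fell (8.06%) at an adjusted p under 0.05, and below a gene of a list is said to rise or fall by that test alone. These counts depend on single libraries more than the DEGs do, since the 3349 genes became 2032 without *siz1-2* IAA replicate 3 and 5478 without Col-0 IAA replicate 1. They were 2115 without *siz1-2* MS replicate 2 and 2171 without *siz1-2* IAA replicate 1.

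ARFs bind auxin response elements with the core TGTC, and the hexamer TGTCTC is the form first described, so the windows upstream of the strongest responders are shown with it. The 250 bases before the gene start were taken from RefSeq (TAIR10.1) and searched on both strands. TGTCTC was found in 10.6% of the windows of all tested genes with a window, in 88 of the 585 windows of the higher DEGs and in 50 of the 511 windows of the lower DEGs (9.78%). Among the 140 DEGs higher by at least 2 on the log2 scale it stood in 32 windows (22.9%). A related hexamer with high affinity for ARFs, TGTCGG, was in 4.65% of all windows and in 5.64% of those of the higher DEGs. These are matches of letters, not sites. Of the 15 largest rises 4 held TGTCTC, and their windows follow 5′ to 3′ on the strand of the gene, with the hexamer TGTCTC in capitals.
GH3.3: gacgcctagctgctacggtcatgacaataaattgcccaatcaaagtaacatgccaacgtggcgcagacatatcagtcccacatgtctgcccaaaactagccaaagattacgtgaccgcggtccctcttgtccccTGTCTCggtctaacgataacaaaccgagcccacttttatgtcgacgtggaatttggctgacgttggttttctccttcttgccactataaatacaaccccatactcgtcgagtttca
IAA5: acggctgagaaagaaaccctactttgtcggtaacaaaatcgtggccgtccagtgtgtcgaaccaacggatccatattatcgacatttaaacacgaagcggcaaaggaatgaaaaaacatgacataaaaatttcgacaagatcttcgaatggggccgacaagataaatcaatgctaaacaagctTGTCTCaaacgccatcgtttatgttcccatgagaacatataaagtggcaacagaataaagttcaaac
GH3.5: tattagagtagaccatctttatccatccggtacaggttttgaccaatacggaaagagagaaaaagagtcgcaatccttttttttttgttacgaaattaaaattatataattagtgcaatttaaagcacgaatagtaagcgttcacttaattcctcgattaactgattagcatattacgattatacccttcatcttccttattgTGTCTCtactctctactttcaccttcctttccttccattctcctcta
GH3.2: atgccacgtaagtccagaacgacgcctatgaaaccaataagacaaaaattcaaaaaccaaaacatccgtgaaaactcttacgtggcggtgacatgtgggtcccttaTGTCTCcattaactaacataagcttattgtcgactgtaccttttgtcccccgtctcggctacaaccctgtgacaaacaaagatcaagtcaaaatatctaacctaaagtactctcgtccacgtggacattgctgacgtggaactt
The window of GH3.3 is chr2:9866563-9866812 (minus strand) with the first base of the hexamer at position −116 from the gene start, and that of IAA5 is chr1:5366498-5366747 (minus strand) with the hexamer at −67. The window of GH3.5 is chr4:13653329-13653578 (plus strand) with the hexamer at −47, and that of GH3.2 is chr4:17579368-17579617 (plus strand) with the hexamer at −144. The window of IAA5 also held TGTCGG at 2 positions, left in lower case. The other 11 of the 15 largest rises, LBD29, MES17 and ACS9 among them, had no TGTCTC in this window.

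The GH3 enzymes, which take free IAA out of action by conjugation, held the largest rise of the genes named, in GH3.3, and others of the 15 largest rises. Of 6 tested GH3 genes 5 rose and none fell, with a median log2 change of 4.25 over the 6. GH3.3 (AT2G23170) stood at 10.6, 14.6 and 16.2 FPKM on MS and at 712, 766 and 820 FPKM with IAA (log2 5.76 ± 0.14 SE, adjusted p = 2.91e-11 from limma, n = 3 libraries each). GH3.5 went from 16.0, 17.2 and 15.2 FPKM to 378, 411 and 432 FPKM (log2 4.61), and GH3.2 from 22.9, 24.3 and 39.4 FPKM to 481, 508 and 535 FPKM (log2 4.16). In each of these genes the lowest IAA library was above the highest MS library by more than 10 times. GH3.6 and GH3.1 rose by 4.12 and 4.34 on the log2 scale to means of 150 and 53.4 FPKM. GH3.17, singled out after its values were seen as the member without a call, read 14.9, 23.3 and 9.67 FPKM on MS and 21.6, 23.8 and 20.6 FPKM with IAA (log2 0.53, adjusted p = 0.135). The summed level of the 6 genes was 72.8, 91.0 and 91.7 FPKM on MS and 1775, 1906 and 2039 FPKM with IAA.

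Other enzymes of auxin metabolism moved one by one. MES17, a methyl esterase that releases IAA from its methyl ester, was at 3.62, 4.32 and 3.24 FPKM on MS and at 132, 154 and 147 FPKM with IAA (log2 5.10 ± 0.12 SE, adjusted p = 2.42e-11 from limma). It was the fourth largest rise among DEGs at 5 FPKM or more, a ranking that held only genes whose groups did not overlap. UGT74E2, a glucosyltransferase that acts on indole-3-butyric acid, rose from 16.7, 22.4 and 11.3 FPKM to 69.1, 52.0 and 47.6 FPKM (log2 1.75). The hydrolase ILL6 gave log2 −0.60 (adjusted p = 0.161 from limma), with 1.53, 1.57 and 0.978 FPKM on MS and 0.294, 1.27 and 0.761 FPKM with IAA, which overlap. Among 16 tested genes of auxin synthesis 2 rose (12.5%) and 3 fell (18.8%), beside 9.81% and 8.06% of all genes tested. In this list 1 rose without *siz1-2* MS replicate 1, IAA replicate 1 or IAA replicate 3. TAA1, the aminotransferase that makes indole-3-pyruvate from tryptophan, rose from 15.9, 13.2 and 15.1 FPKM to 35.0, 34.3 and 35.8 FPKM (log2 1.23, adjusted p = 1.43e-05 from limma). CYP79B3, which makes indole-3-acetaldoxime, and the nitrilase NIT3 both fell by 0.61 on the log2 scale.

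The list of auxin receptors gave 1 call, a fall, in 14.3% of its tested genes beside 8.06% of all genes tested. Of 7 tested genes for the TIR1/AFB receptors and the TMK kinases none rose and 1 fell, namely GRH1, also called AFB1, from 44.4, 40.6 and 48.7 FPKM to 31.8, 30.7 and 30.4 FPKM (log2 −0.51, adjusted p = 0.00528 from limma). TIR1 was at 29.5, 27.1 and 27.9 FPKM on MS and at 37.0, 34.6 and 35.9 FPKM with IAA (log2 0.34, adjusted p = 0.0568). Its groups did not overlap, yet the change stayed on the other side of the threshold. In this list 1 gene rose without MS replicate 3, IAA replicate 1 or IAA replicate 2 of Col-0.

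The Aux/IAA repressors, the partners of these receptors, were the auxin family with the most members called. Of 25 tested genes 18 rose and 2 fell, and the median log2 change was 1.44. Their summed level was 898, 865 and 806 FPKM on MS and 1804, 1928 and 1966 FPKM with IAA. IAA19 had the largest limma statistic, with 7.65, 7.97 and 7.14 FPKM on MS and 56.7, 81.3 and 72.6 FPKM with IAA (log2 3.11 ± 0.17 SE, adjusted p = 6.82e-08). IAA5 was close to silent on MS at 0.512, 0.524 and 0.245 FPKM and reached 19.9, 27.4 and 22.4 FPKM (log2 4.68). IAA11 rose by 2.66 and IAA13 by 1.77 on the log2 scale. The most abundant of the called members, IAA9, went from 255, 250 and 233 FPKM to 631, 658 and 643 FPKM (log2 1.39).

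Repressors with a known part in LR formation were found among both the rises and the falls. IAA14, also called SOLITARY-ROOT, which holds back ARF7 and ARF19 in the first divisions of LR founder cells, was at 14.1, 11.9 and 13.04 FPKM on MS and at 26.6, 29.9 and 29.9 FPKM with IAA (log2 1.11, adjusted p = 3.01e-05 from limma). IAA3, also called SHORT HYPOCOTYL 2, rose from 6.52, 7.35 and 4.69 FPKM to 18.6, 20.4 and 16.4 FPKM (log2 1.52). The 2 members that fell were IAA28, which acts early in LR formation, by 0.63, and the weakly expressed IAA33, by 0.85 on the log2 scale, both named after their values were seen. The 2 falls became 1 when any one of the *siz1-2* libraries other than IAA replicate 2 was left out. Leaving out single libraries gave between 16 and 19 rises.

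Of 13 tested ARF genes 5 rose and none fell, with a median of 0.25. ARF19 (AT1G19220), an ARF known to be induced by auxin, stood at 8.46, 6.91 and 6.56 FPKM on MS and at 34.3, 26.8 and 39.3 FPKM with IAA (log2 2.11 ± 0.35 SE, adjusted p = 0.000904 from limma). Its partner ARF7 stood at 12.7, 11.4 and 9.43 FPKM and at 15.1, 11.9 and 12.6 FPKM (log2 0.23, adjusted p = 0.49), with overlapping groups. ARF16, which acts in the root cap, rose from 14.5, 15.2 and 11.1 FPKM to 44.8, 45.2 and 44.7 FPKM (log2 1.70). ARF4 rose by 1.14 on the log2 scale. The remaining 2 calls, ARF6 and ARF9, were lost without any one of *siz1-2* MS replicate 2, MS replicate 3, IAA replicate 1 or IAA replicate 3, each of which left 3 ARF genes called.

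**Figure D2:**
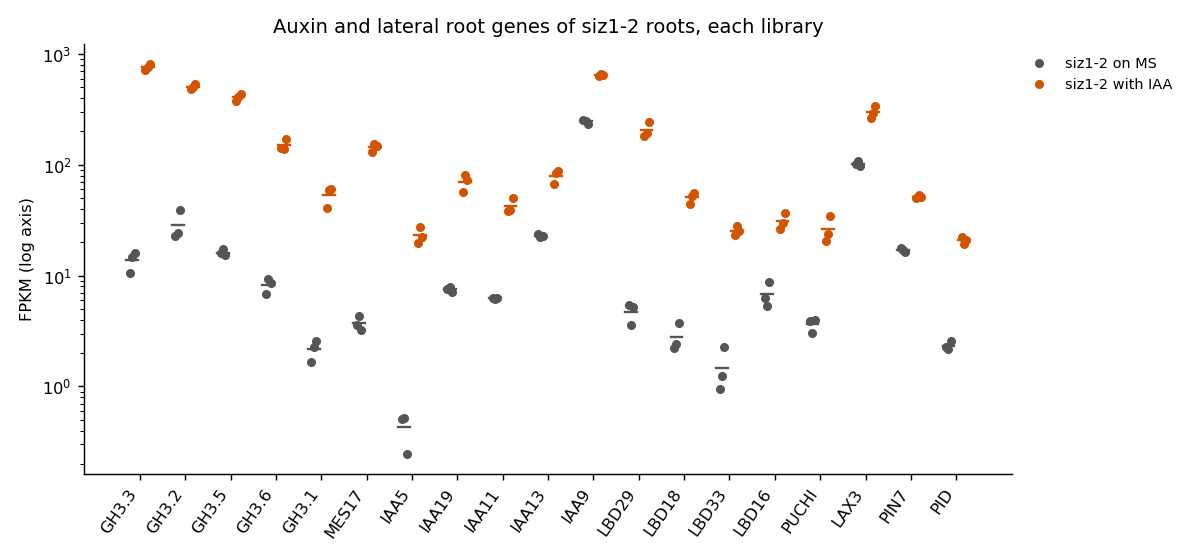
FPKM (log axis) of genes of auxin metabolism, signalling, transport and LR formation in each *siz1-2* library on MS and with IAA, one point per library, with a short bar at each group's mean. In every gene of the plot the 3 IAA points lie above the 3 MS points, from 1.39 log2 units in IAA9 to 5.76 in GH3.3.

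The LBD factors of LR formation rose as a group. Of 6 tested genes 5 rose and none fell, with a median log2 change of 3.29. LBD29 (AT3G58190) was at 5.48, 3.55 and 5.16 FPKM on MS and at 180, 195 and 243 FPKM with IAA (log2 5.31 ± 0.20 SE, adjusted p = 2.33e-09 from limma), the second largest rise of the named genes. LBD18 went from 2.21, 2.40 and 3.75 FPKM to 44.7, 52.4 and 55.5 FPKM (log2 3.99, adjusted p = 4.4e-09). LBD16 was the highest of the 3 on MS, with 6.25, 5.33 and 8.73 FPKM, and the lowest with IAA, with 26.1, 30.0 and 36.4 FPKM (log2 2.12, adjusted p = 6.71e-05). In all 3 genes the groups were well apart, and a lack of overlap was a condition for naming LBD29 and LBD18 among the largest rises. LBD33 and LBD17 rose by 3.76 and 2.83 on the log2 scale. The sixth gene, LBD14, read 9.10, 9.32 and 9.42 FPKM on MS and 7.92, 9.83 and 9.24 FPKM with IAA (log2 −0.05, adjusted p = 0.855), and it was named after its values were seen. The count was 5 whichever single library was left out.

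Among 29 tested genes of LR initiation and the primordium 14 rose and none fell, with a median of 0.67. MAKR4, which acts in the founder cells, was at 6.19, 6.60 and 6.56 FPKM on MS and at 79.3, 91.9 and 115 FPKM with IAA (log2 3.77, adjusted p = 1.2e-07 from limma). PUCHI, an AP2 factor that shapes the early primordium, rose from 3.93, 3.03 and 3.94 FPKM to 20.5, 23.8 and 34.2 FPKM (log2 2.66). GATA23, a factor of founder cell identity, rose from 3.65, 3.80 and 4.56 FPKM to 11.3, 14.9 and 16.4 FPKM (log2 1.70). None of these 3 genes had overlapping groups, which was true of 1089 of the 1096 DEGs. CRF2 rose by 1.01, and WOX5, a homeobox gene of the quiescent centre, by 1.44 on the log2 scale. The list shares ARF19, IAA3 and IAA14 with those above.

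Genes of the tissue that parts over an emerging LR were mixed. Of 12 tested 4 rose and 2 fell, and 1 fell without MS replicate 1 or 2 of Col-0 or any one *siz1-2* library other than IAA replicate 1. The influx carrier LAX3, which marks the cells that separate, went from 102, 108 and 96.9 FPKM to 263, 292 and 338 FPKM (log2 1.53 ± 0.11 SE, adjusted p = 5.84e-07 from limma). IDA, the peptide that triggers separation, was low throughout, at 0.257, 0.368 and 0.718 FPKM on MS and at 1.51, 3.74 and 2.67 FPKM with IAA (log2 1.69, adjusted p = 0.00117). EXPA17, an expansin that loosens walls downstream of LBD18, rose from 40.6, 59.8 and 28.4 FPKM to 113, 90.9 and 112 FPKM (log2 1.34). EXPA14 is another expansin placed downstream of LBD18, and the study, under the name EXP14, tested it as a target of LBD29. It read 18.1, 19.8 and 27.2 FPKM on MS and 15.2, 19.3 and 15.8 FPKM with IAA (log2 −0.35, adjusted p = 0.131), with overlap. Both expansins and the fall of the xyloglucan enzyme XTR6, by 1.33, belong to the wall genes described further on.

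Transport of auxin changed on the side of both influx and efflux. Of 20 tested carriers 8 rose and 2 fell. AUX1, the influx carrier of the root tip and epidermis, rose from 75.5, 77.4 and 69.0 FPKM to 150, 163 and 174 FPKM (log2 1.13). The efflux carrier PIN7 rose from 17.6, 17.1 and 16.2 FPKM to 50.1, 53.5 and 51.2 FPKM (log2 1.58, adjusted p = 7.58e-07 from limma), and PIN3 rose by 1.37 on the log2 scale. The groups of these 3 carriers did not overlap, as was the case in 1089 of the 1096 DEGs. The carriers that fell, named after their values were seen, were PIN5 of the endoplasmic reticulum (log2 −1.18) and PILS7 (log2 −1.63), and 1 fell without *siz1-2* MS replicate 2, IAA replicate 1 or IAA replicate 3. Of 8 tested AGC kinases, which phosphorylate PIN proteins, 4 rose and 1 fell. PINOID (PID) went from 2.26, 2.17 and 2.57 FPKM to 22.5, 19.3 and 20.8 FPKM (log2 2.91 ± 0.13 SE, adjusted p = 1.5e-08), and D6PK rose by 0.54 on the log2 scale. The fall, in WAG1, lost its call whichever of the 6 *siz1-2* libraries was left out.

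The SAUR genes went both ways. Of 40 tested 10 rose and 7 fell, and the median was 0.26, so that in contrast with the GH3 and LBD lists no common direction was seen. SAUR34 was at 0.487, 0.998 and 0.429 FPKM on MS and at 10.9, 11.5 and 13.8 FPKM with IAA (log2 3.49, adjusted p = 1.39e-07 from limma). SAUR35 rose by 3.46, and the neighbours SAUR66 and SAUR67 by 2.47 and 2.57 on the log2 scale. SAUR24 was at 0, 0 and 0.0763 FPKM on MS and at 3.81, 4.88 and 2.26 FPKM with IAA, and since it has near-identical neighbours its value is uncertain. The falls with the largest limma statistics, named after the values were seen, were in SAUR37 and SAUR4. SAUR37 went from 65.4, 61.9 and 57.3 FPKM to 19.4, 24.4 and 17.4 FPKM (log2 −1.58, adjusted p = 3.94e-05), and SAUR4 fell by 1.82 on the log2 scale. The number that fell was 4 without *siz1-2* MS replicate 2.

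**Figure D3:**
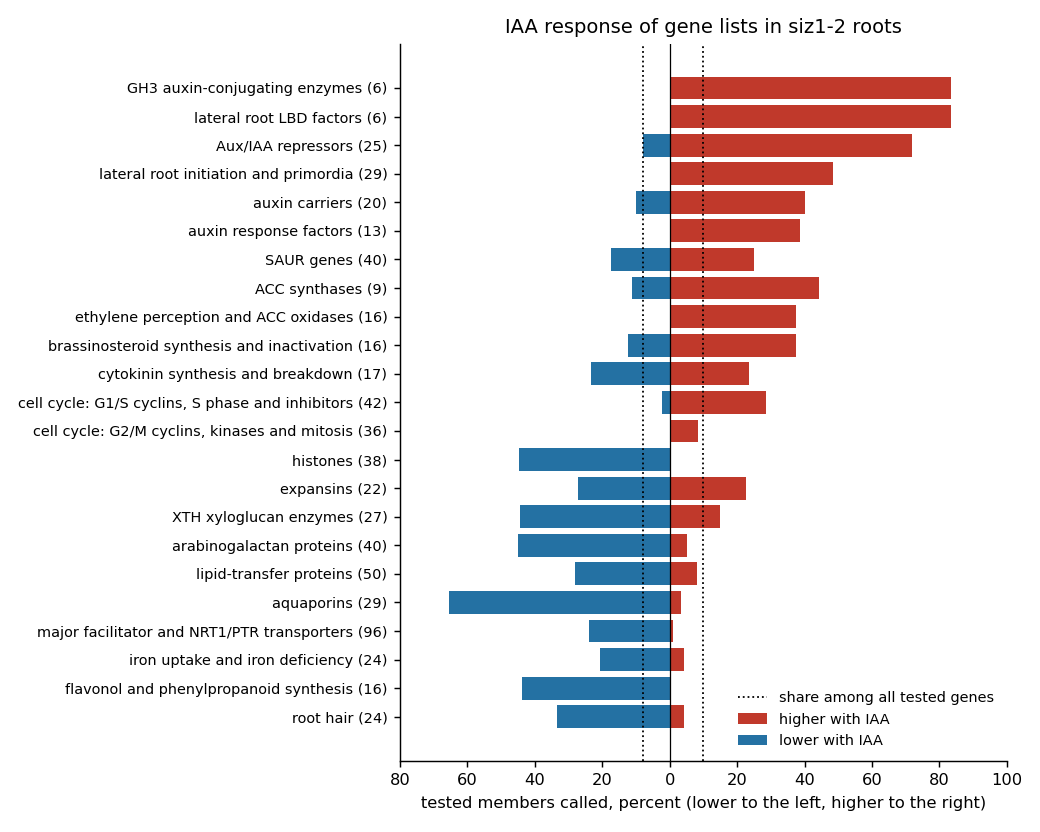
Percent of the tested members of 23 gene lists that rose (red, to the right) or fell (blue, to the left) with IAA in *siz1-2* at an adjusted p under 0.05. The dotted lines mark the shares over all genes tested, 9.81% higher and 8.06% lower, and the GH3, LBD and Aux/IAA lists reach farthest to the right while aquaporins, arabinogalactan proteins, histones and XTH enzymes reach far to the left.

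Genes of other hormones responded as well, first among them those of ethylene synthesis. ACC synthases make the precursor of ethylene, and of 9 tested genes 4 rose and 1 fell. ACS9 was at 0.0619, 0 and 0 FPKM on MS and at 13.7, 14.9 and 15.6 FPKM with IAA (log2 4.87 ± 0.18 SE, adjusted p = 2.09e-09 from limma). ACS11 rose by 2.77 and ACS8 by 1.88 on the log2 scale, both from below 1 FPKM. ACS5 went the other way, from 1.99, 2.40 and 1.02 FPKM to 0.048, 0.0729 and 0 FPKM (log2 −2.04, adjusted p = 9.7e-05). Among 16 tested genes of ethylene perception and ACC oxidation 6 rose and none fell, and 10 rose without Col-0 IAA replicate 1. The receptors ERS1 and ERS2 rose by 0.72 and 0.94, and EBF1, an F-box protein that degrades EIN3, by 0.90 on the log2 scale.

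Genes of cytokinin synthesis and breakdown went both ways. Of 17 tested 4 rose and 4 fell. IPT3, which makes the first cytokinin precursor, went from 37.0, 36.7 and 28.8 FPKM to 12.2, 14.4 and 14.7 FPKM (log2 −1.28, adjusted p = 3.05e-05 from limma). CYP735A2, which makes trans-zeatin types, went from 41.1, 57.4 and 42.3 FPKM to 10.9, 12.7 and 10.3 FPKM (log2 −1.99, adjusted p = 5.85e-07), and CYP735A1 fell by 1.15 on the log2 scale. Of the genes that rose, LOG7, which activates cytokinins, went from 18.9, 19.4 and 17.1 FPKM to 46.6, 40.4 and 43.4 FPKM (log2 1.21). CKX7, which breaks them down, rose by 1.69 on the log2 scale. The number that rose was 2 without *siz1-2* MS replicate 2 or without any 1 of the 3 *siz1-2* IAA libraries. Of 8 type-A response regulators, which are induced by cytokinin, none rose and 2 fell, ARR3 from 26.6, 22.6 and 20.8 FPKM to 9.75, 11.2 and 10.6 FPKM (log2 −1.11) and ARR6 by 0.55. The 2 falls became 1 without MS replicate 2, IAA replicate 2 or IAA replicate 3 of *siz1-2*.

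Gibberellin genes gave single large values. GA2OX8, which inactivates gibberellins, was at 0.0299, 0.428 and 0.0643 FPKM on MS and at 5.76, 6.47 and 8.32 FPKM with IAA (log2 3.48, adjusted p = 7.69e-07 from limma). Of 8 tested gibberellin oxidases 3 rose and 2 fell. The falls, in GA3OX1 and GA3OX2, became 0 without *siz1-2* MS replicate 1, MS replicate 3, IAA replicate 1 or IAA replicate 3, and 1 without MS replicate 2 or IAA replicate 2 of *siz1-2* or MS replicate 3 of Col-0. The GASA peptides, small cysteine-rich proteins known as targets of gibberellin, showed opposite changes of high levels. GASA5 rose from 10.3, 10.3 and 14.0 FPKM to 189, 166 and 232 FPKM (log2 4.03, adjusted p = 2.43e-08), and GASA1 fell from 418, 504 and 407 FPKM to 84.5, 96.2 and 68.2 FPKM (log2 −2.42, adjusted p = 3.17e-06). Among 16 genes of brassinosteroid synthesis, inactivation and perception 6 rose and 2 fell. The falls were 4 without Col-0 IAA replicate 1 and 1 without *siz1-2* MS replicate 1 or IAA replicate 3. DWF4, an early step of synthesis, rose by 1.41, while the inactivating enzymes BEN1 and CYP72C1 rose by 1.27 and 2.55, and the receptors BRL3 and BRL1 by 2.15 and 1.08 on the log2 scale.

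Genes of cell division moved by small amounts. Of 42 tested genes of G1/S cyclins, S phase and cycle inhibitors 12 rose and 1 fell, none reaching a log2 change of 1, with a median of 0.39. CYCD3;1, a D-type cyclin of cell cycle entry, went from 19.6, 19.6 and 20.4 FPKM to 33.3, 30.1 and 34.7 FPKM (log2 0.70, adjusted p = 0.000867 from limma). RNR1, the large subunit of ribonucleotide reductase, rose from 29.9, 29.2 and 30.2 FPKM to 61.1, 55.8 and 61.1 FPKM (log2 0.98). The inhibitor ICK3 rose by 0.92 on the log2 scale. The member that fell, KRP2, is an inhibitor known to be lowered by auxin, at 18.0, 16.9 and 13.3 FPKM on MS and 9.96, 9.93 and 9.65 FPKM with IAA (log2 −0.67, adjusted p = 0.0449), and it was named after its values were seen. It was no longer called when Col-0 MS replicate 2 or any one *siz1-2* library other than MS replicate 3 was left out. The number that rose depended on single libraries. It was 4 without *siz1-2* MS replicate 2, 5 without IAA replicate 3, 7 without MS replicate 1, MS replicate 3 or IAA replicate 1, and 21 without Col-0 IAA replicate 1. After median centring of the libraries 7 rose.

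Of 36 tested genes of G2 and mitosis 3 rose (8.33%) and none fell, beside 9.81% and 8.06% of all genes tested. Their median was 0.13, beside 0.10 over all genes tested. Here 10 rose without Col-0 IAA replicate 1, 9 with the 6 *siz1-2* libraries alone, and 1 without MS replicate 2, MS replicate 3 or IAA replicate 3 of *siz1-2*. Histone genes, which serve the packing of new DNA, gave only falls. Of 38 tested none rose and 17 fell, with a median of −0.51. Their summed level was 3426, 3443 and 3861 FPKM on MS and 2673, 2743 and 2474 FPKM with IAA, without overlap. The histone H4 gene AT3G53730 went from 72.9, 73.6 and 82.6 FPKM to 42.1, 40.1 and 35.9 FPKM (log2 −0.95, adjusted p = 0.000465 from limma). The histone gene AT3G46320 fell by 1.15 on the log2 scale, the one DEG of the list. Histone genes have near-identical copies that may share reads, so single values are uncertain, and 11 fell without *siz1-2* IAA replicate 3.

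Cell wall genes gave both rises and falls. Among 22 tested expansins, which loosen walls, 5 rose and 6 fell. EXPA1 rose from 24.8, 23.0 and 34.4 FPKM to 113, 139 and 132 FPKM (log2 2.22, adjusted p = 1.7e-06 from limma), while EXPB1 fell from 22.3, 28.2 and 19.6 FPKM to 1.86, 2.84 and 1.82 FPKM (log2 −3.16, adjusted p = 4.56e-07). EXPA15 fell by 1.37 on the log2 scale, and 8 expansins rose without Col-0 IAA replicate 1. Of 27 XTH enzymes, which cut and rejoin xyloglucan, 4 rose and 12 fell, with a median of −0.43. XTH16 went from 44.5, 46.1 and 42.3 FPKM to 6.85, 8.70 and 8.74 FPKM (log2 −2.39, adjusted p = 1.74e-07), and the abundant XTH31 from 630, 636 and 492 FPKM to 237, 229 and 210 FPKM (log2 −1.37). TCH4, an XTH induced by touch and by hormones, rose from 1.93, 3.38 and 3.70 FPKM to 32.8, 32.3 and 39.1 FPKM (log2 3.37, adjusted p = 6.13e-07).

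Pectin is modified by methylesterases and cut by polygalacturonases and lyases. Of 49 tested pectin methylesterases and their inhibitors 9 rose and 12 fell. The inhibitor family gene AT1G62770 rose from 17.7, 20.2 and 20.8 FPKM to 278, 256 and 268 FPKM (log2 3.74, adjusted p = 1.31e-09 from limma), and AT4G25250 of the same annotation fell from 47.8, 62.7 and 37.5 FPKM to 0.248, 0.652 and 0.312 FPKM (log2 −5.78 ± 0.31 SE). Of 57 polygalacturonases, lyases and related proteins 11 rose and 13 fell, and 8 fell without *siz1-2* IAA replicate 3. The pectate lyase AT1G67750 rose by 2.34, and the neighbours AT1G05650 and AT1G05660 fell by 4.84 and 3.80 on the log2 scale. PGIP1, an inhibitor of polygalacturonases, rose from 169, 175 and 267 FPKM to 735, 634 and 891 FPKM (log2 1.90). It was second to GH3.3 in mean level with IAA among the higher DEGs.

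Arabinogalactan proteins, glycoproteins of the cell surface, fell in most calls. Of 40 tested 2 rose and 18 fell, with a median of −0.55. Their summed level was 3764, 3957 and 3916 FPKM on MS and 1953, 2218 and 2074 FPKM with IAA. AGP22 went from 158, 196 and 134 FPKM to 6.10, 8.32 and 6.97 FPKM (log2 −4.41 ± 0.25 SE, adjusted p = 1.07e-07 from limma), and AGP13 from 152, 173 and 135 FPKM to 9.19, 11.2 and 9.63 FPKM (log2 −3.87). AGP14, known from root hairs, fell by 2.93 on the log2 scale. In each of the 3 genes the groups were far apart. A lack of overlap was a condition for naming AGP22 and AGP13 among the largest falls. The members that rose, FLA5 and AT5G16920, were at 2.75 FPKM or less in every *siz1-2* library and were named after their values were seen, and 1 rose without *siz1-2* IAA replicate 3.

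Aquaporins, the channels for water and small solutes, held the broadest fall by share. Of 29 tested genes 1 rose and 19 fell (65.5%), with a median of −0.86. The summed level went from 9882, 10844 and 7923 FPKM on MS to 4906, 5136 and 4503 FPKM with IAA. NLM1 (NIP1;1) fell from 78.8, 101 and 72.4 FPKM to 1.52, 1.19 and 1.301 FPKM (log2 −5.51 ± 0.18 SE, adjusted p = 5.44e-10 from limma), the third largest fall of all DEGs named. The plasma membrane aquaporin PIP1A went from 857, 887 and 652 FPKM to 235, 252 and 200 FPKM (log2 −1.79, adjusted p = 2.04e-06), and PIP2;4 from 150, 166 and 89.7 FPKM to 25.1, 28.3 and 24.9 FPKM (log2 −2.30). PIP1B, PIP1A and PIP2;2 had the highest means on MS of all lower DEGs. PIP2;6 was the member that rose, from 3.91, 3.26 and 3.47 FPKM to 16.5, 16.6 and 15.2 FPKM (log2 2.04). Leaving out single libraries gave 15 to 21 falls.

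**Figure D4:**
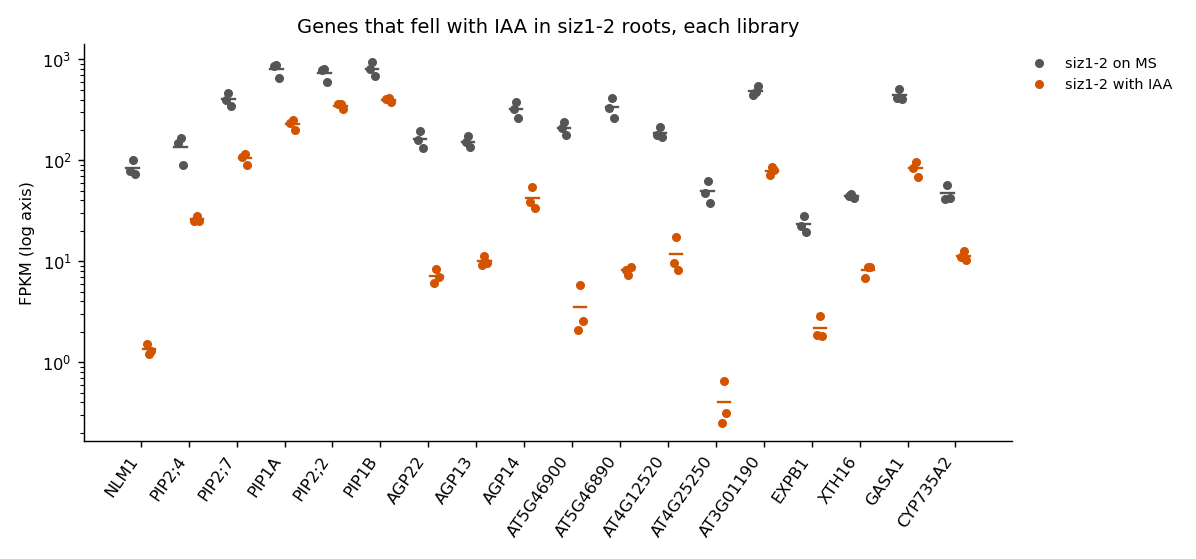
FPKM (log axis) of genes that fell with IAA in each *siz1-2* library, one point per library, with a short bar at each group's mean, for cell wall, lipid transfer, peroxidase, aquaporin and cytokinin genes. The MS points lie above the IAA points in every gene of the plot, with the widest gaps in AT5G46900, AT4G25250 and NLM1.

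Nutrient and root hair genes fell in smaller numbers. Of 24 tested root hair markers 8 fell and 1 rose. There 5 fell without *siz1-2* IAA replicate 1, and 2 rose without MS or IAA replicate 1 of Col-0. RSL1, a bHLH factor of root hair fate, went from 1.89, 1.83 and 1.68 FPKM to 0.693, 0.568 and 0.657 FPKM (log2 −1.01), and SHV2, needed for hair growth, from 26.3, 26.8 and 20.7 FPKM to 8.78, 12.1 and 11.4 FPKM (log2 −1.16). The member that rose was LRL3, from 14.8, 17.1 and 9.71 FPKM to 24.3, 24.2 and 27.2 FPKM (log2 0.88). In roots whole tissue was sampled, so fewer cells of a type and less RNA per cell cannot be told apart. Of 24 tested genes of iron uptake 1 rose and 5 fell. FRU (FIT), the regulator of iron uptake, fell from 62.6, 55.6 and 49.6 FPKM to 26.6, 26.8 and 25.4 FPKM (log2 −1.07, adjusted p = 0.000786 from limma), and the ferritin FER1 rose by 0.63 on the log2 scale. The 5 falls became 3 without *siz1-2* MS replicate 2, IAA replicate 1 or IAA replicate 2, 8 without Col-0 IAA replicate 1 and 10 without *siz1-2* MS replicate 3.

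Nitrate genes with a call included both directions. Of 25 tested 3 rose and 6 fell. NRT1.5, which loads nitrate into the xylem, fell from 299, 287 and 329 FPKM to 184, 162 and 162 FPKM (log2 −0.85, adjusted p = 0.000373 from limma). NRT2:1, a high-affinity uptake transporter, fell from 38.2, 55.8 and 44.4 FPKM to 20.5, 21.4 and 22.9 FPKM (log2 −1.06), and NRT1.8, which unloads nitrate from the xylem, rose from 1.77, 1.64 and 3.21 FPKM to 6.57, 5.61 and 6.98 FPKM (log2 1.39). The 6 falls became 3 without *siz1-2* MS replicate 2 or IAA replicate 1.

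The largest fall of all was in a gene of the lipid-transfer protein family. Of 50 tested members 4 rose and 14 fell, with a median of −0.17. AT5G46900 went from 211, 241 and 176 FPKM to 2.08, 5.85 and 2.56 FPKM (log2 −5.82 ± 0.36 SE, adjusted p = 2.02e-07 from limma), and its neighbour AT5G46890 from 330, 417 and 261 FPKM to 8.19, 7.37 and 8.81 FPKM (log2 −5.26). The adjacent AT4G12520 and AT4G12510 fell by 4.00 and 3.98 on the log2 scale. Each of these pairs holds similar copies side by side that may exchange reads, as may AT1G05650 and AT1G05660, so the value of a single copy is uncertain. Of 54 tested class III peroxidases, enzymes of the wall, 9 rose and 12 fell. AT3G01190 went from 442, 475 and 547 FPKM to 72.0, 84.9 and 79.6 FPKM (log2 −2.62 ± 0.11 SE, adjusted p = 4.4e-09), and AT2G38390 rose by 0.85 on the log2 scale.

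Some DEGs were neighbours with the same call. Among the 585 higher DEGs 105 genes lay in 49 runs of neighbouring genes with the same call. Among the 511 lower DEGs 84 genes lay in 41 runs, and the longest run held 3 genes. Some runs skip locus numbers, as with AT2G28660 and AT2G28690, so their members need not be next to each other in the genome. How many runs would arise with calls spread at random was not tested. One run of 3 joined the brassinosteroid gene BEN1 with LBD19 and LBD18, and another joined PID with AT2G34655 and ABCC2. LBD16 and LBD17 also lie side by side, as do ARF19 and AT1G19230. Where neighbours overlap or the counting did not use strand, reads of one may count for the other, and the labels do not state how the reads were counted.

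Other families held single members with large changes. ZFP2, a zinc finger gene, was at 0.197, 0.0404 and 0.127 FPKM on MS and at 19.97, 21.2 and 24.0 FPKM with IAA (log2 5.16, adjusted p = 3.04e-09 from limma). CDEF1, a GDSL lipase with cutinase activity, rose from 33.3, 31.2 and 65.2 FPKM to 532, 618 and 729 FPKM (log2 3.91). AIR12, a cytochrome b gene first found as auxin-induced in root cultures, rose from 24.6, 28.3 and 31.2 FPKM to 259, 318 and 267 FPKM (log2 3.31). None of these genes had overlapping groups. This was a condition for naming ZFP2 among the largest rises, and it held in 1089 of the 1096 DEGs. The peptide gene CLE44, which acts in the vascular cambium, rose from 1.33, 1.42 and 2.60 FPKM to 25.2, 28.8 and 28.7 FPKM (log2 3.66, adjusted p = 7.46e-08). ADC2, which makes the polyamine precursor agmatine, rose from 116, 122 and 122 FPKM to 430, 476 and 499 FPKM (log2 1.96).

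Genes of the SUMO pathway gave 1 call, a rise, in 7.14% of those tested beside 9.81% of all genes tested. Of 14 tested genes 1 rose and none fell, and that gene, HPY2, the other SUMO E3 ligase, was called with an adjusted p = 0.0206 from limma (log2 0.58, 5.54, 6.56 and 7.77 FPKM on MS and 10.3, 10.8 and 9.14 FPKM with IAA) but lost the call in 6 of the alternatives run. The number that rose was 0 without *siz1-2* MS replicate 1 or 2 or IAA replicate 1 or 2, 2 without MS replicate 3 of either genotype, 3 without Col-0 IAA replicate 2 or 3 and 4 without Col-0 IAA replicate 1. With the 6 *siz1-2* libraries alone 5 rose, and without both libraries high in green tissue markers 3 rose and 2 fell. The SUMO-conjugating enzyme SCE1 gave log2 −0.28 (adjusted p = 0.17 from limma), and the modifier gene SUMO2 gave 0.39 (adjusted p = 0.0509).

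The difference between the responses of *siz1-2* and Col-0 was tested as the interaction of genotype and treatment. By itself the Col-0 response had 9.09% of genes higher and 8.21% lower at an adjusted p under 0.05. Of the 1096 DEGs of *siz1-2*, 746 were DEGs of Col-0 in the same direction, 350 were not, and 1078 had the same sign of change. A missing call in Col-0 is no test of a difference. The interaction called 3 genes of 18743 (0.0160%) in limma, and 2124 genes (11.3%) had an unadjusted p under 0.05. With 3 libraries in each group, a gene without this call is not shown to respond equally. Among the DEGs of *siz1-2* 1 gene was called and 269 had an unadjusted p under 0.05.

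That DEG was GH3.3, whose response was smaller in *siz1-2* by 3.06 on the log2 scale (adjusted p = 2.32e-05 from limma). The Col-0 libraries read 1.21, 1.06 and 0.932 FPKM on MS and at 763, 640 and 728 FPKM with IAA (log2 8.82), against 5.76 in *siz1-2*. The IAA levels of the genotypes overlapped, while on MS all *siz1-2* libraries were above all Col-0 libraries (log2 3.17, adjusted p = 9.51e-08). The difference was called under every alternative run, between −3.44 and −2.71. The other called genes were no DEGs of *siz1-2*. AT5G14690 went from 13.1, 13.4 and 14.3 FPKM to 22.7, 24.8 and 24.2 FPKM in *siz1-2* (log2 0.79) beside a log2 change of 2.11 in Col-0, a difference of −1.32 (adjusted p = 0.00949). Its adjusted p was 0.0626 without Col-0 MS replicate 2, 0.0695 without *siz1-2* IAA replicate 1 and 0.0535 without *siz1-2* IAA replicate 3. Mean levels of AT5G14690 on MS were 13.62 FPKM in *siz1-2* and 17.01 FPKM in Col-0 (log2 −0.31, adjusted p = 0.141 from limma). With IAA they were 23.91 FPKM in *siz1-2* and 74.8 FPKM in Col-0. SAUR45 (AT2G36210) gave 0.30 in *siz1-2* (adjusted p = 0.196) and 1.87 in Col-0, a difference of −1.57 (adjusted p = 0.0369). This difference was no longer called when any 1 of 10 of the 12 libraries was left out (adjusted p 0.051 to 0.164). The call was also lost with no filter (0.0648) or with median centring (0.0812). Mean levels of SAUR45 on MS were 13.41 FPKM in *siz1-2* and 5.402 FPKM in Col-0 (log2 1.23, adjusted p = 0.000424 from limma). With IAA they were 16.58 FPKM in *siz1-2* and 21.25 FPKM in Col-0.

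**Figure D5:**
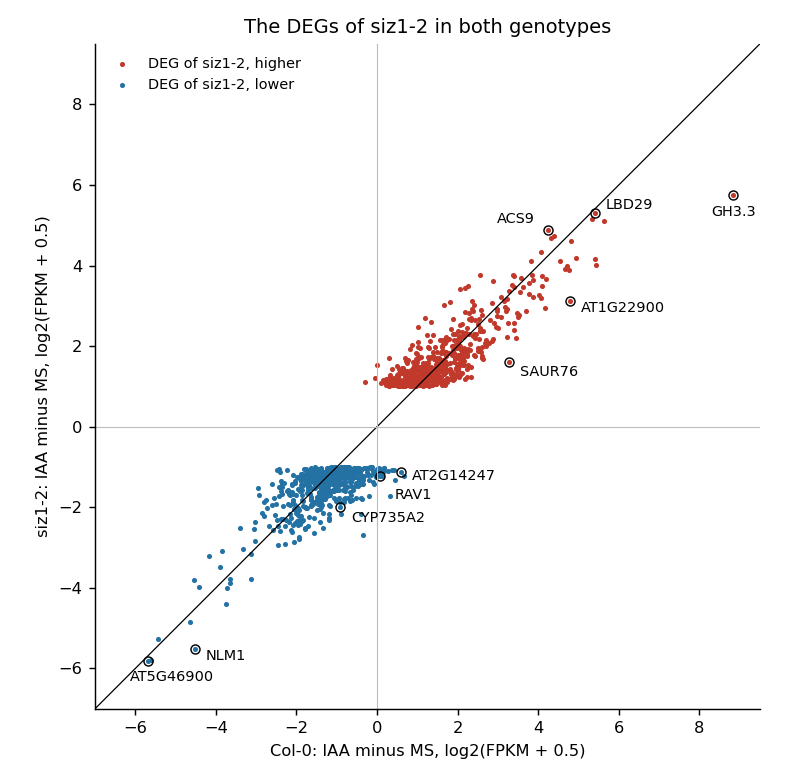
Log2 response to IAA in Col-0 (x axis) and in *siz1-2* (y axis) of the 1096 DEGs of *siz1-2*, one point per gene, with the line of equal response. Most points lie near the line, 1078 of them with the same sign on both axes, and GH3.3 (8.82 in Col-0 and 5.76 in *siz1-2*), the one DEG with a called difference, lies below it at the far right.

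The next smallest interaction p-values among the DEGs did not pass the adjustment. SAUR76 rose by 1.62 in *siz1-2* beside 3.28 for the wild type (difference −1.66, adjusted p = 0.113 from limma). Its mean on MS was 17.05 FPKM in *siz1-2* and 5.15 FPKM in Col-0 (log2 1.61, adjusted p = 0.000381 from limma). With IAA its means were 52.0 and 54.35 FPKM. CYP735A2 changed by −1.99 and −0.91 (difference −1.08, adjusted p = 0.128). RAV1, an AP2/B3 factor, changed by −1.22 and 0.07 (difference −1.29, adjusted p = 0.134), and GH3.2 by 4.16 and 5.42 (difference −1.26, adjusted p = 0.134). GH3.2 was also higher in *siz1-2* on MS, with means of 28.9 and 15.2 FPKM (log2 0.87, adjusted p = 0.00792 from limma). With IAA its means were 508 FPKM in *siz1-2* and 667 FPKM in Col-0. Among the LR genes the difference was −0.10 ± 0.28 SE for LBD29 and −0.74 ± 0.23 SE for LBD18 (adjusted p = 0.382 from limma). It was 0.81 ± 0.36 SE for LBD16 and 1.10 ± 0.49 SE for ARF19 (both adjusted p = 0.438). None passed the adjustment, which does not show an equal response. With IAA in Col-0 LBD16 read 13.9, 26.6 and 26.0 FPKM and ARF19 7.97, 21.3 and 30.3 FPKM, both lowest in replicate 1. By lists, 18 of 25 Aux/IAA genes rose in Col-0 and 18 in *siz1-2*, 14 of 29 aquaporins fell in Col-0 and 19 in *siz1-2*, and 3 of 38 histone genes fell in Col-0 and 17 in *siz1-2*. No member of the histone list passed the interaction test, so these counts do not show a difference. Col-0 IAA replicate 1 stood apart from its group, with 1848 genes over 1 log2 unit away from its replicates and green tissue markers at a median of 36.2 FPKM. Without this library the interaction also called 3 genes, counted with a log2 difference of at least 1.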

How the data were processed

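Root RNA was sequenced in 12 libraries, 3 in each of 4 groups, on the platform of the study's sequencing provider. The authors deposited FPKM per gene, and neither aligner nor genome build is named. The labels' treatment protocol names IAA for all libraries, so groups were taken from titles and characteristics. Values were turned into log2(FPKM + 0.5) and genes reaching 1 FPKM in 3 or more libraries were fitted in limma 3.58.1 (R 4.3.3) with 4 group means and a variance trend, and p-values were adjusted by Benjamini-Hochberg over 18743 genes. Members and gene lists were chosen with earlier results of these data known. Of 1284 names in 54 lists 1177 matched 1 gene, 15 wrong matches were left out, and 16 families came from the annotation text. Named by rule were the 15 largest rises and falls without overlap among DEGs whose higher group averaged 5 FPKM or more, the 10 most abundant DEGs of each direction, the 10 DEGs with the smallest interaction p-values, up to 5 members per list with the largest limma statistics and the auxin, LR and SUMO genes of the study's text. Promoter windows came from RefSeq TAIR10.1 by locus tag. The fit was tested on simulated data. Alternatives changed the pseudocount (0.1 or 1), the filter (none, or 5 FPKM) or the scaling (quantiles or medians), used the *siz1-2* libraries alone, a replicate block, robust estimation or no fold limit, or left out each library. Leaving out both libraries high in green tissue markers was added after the data were seen. Figures were drawn with matplotlib 3.10.9. Single values of some list members are not reported here.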

Additional observations from a re-analysis of the deposited data

Results flagged for a closer look

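For 3 genes the response to IAA differed between *siz1-2* and Col-0 by the interaction test in limma, adjusted over 18743 genes. The difference (*siz1-2* minus Col-0, log2) was −3.06 for GH3.3 (adjusted p = 2.32e-05), −1.57 for SAUR45 (adjusted p = 0.0369) and −1.32 for AT5G14690 (adjusted p = 0.00949). GH3.3 was higher on MS in *siz1-2* than in Col-0 by 3.17 on the log2 scale (adjusted p = 9.51e-08 from limma). SAUR45 was higher there by 1.23 (adjusted p = 0.000424), and for AT5G14690 the difference on MS was −0.31 (adjusted p = 0.141).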

How the results depend on the processing

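The 585 higher and 511 lower DEGs became 1839 and 1510 with no limit on the fold, and stayed within 1.5 times under every other alternative run. Pseudocounts of 0.1 and 1 gave 1265 and 921 DEGs, and a filter of 5 FPKM gave 821. Scaling moved the split, since 53.4% of DEGs were higher as deposited, 45% after quantile normalization and 42.6% after median centring, which took the median over all genes from 0.10 to −0.01. Leaving out single libraries gave 528 to 637 higher and 464 to 576 lower DEGs. Without both libraries high in green tissue markers 1239 genes were called, 1057 of them in common. Interaction calls in this section also needed a log2 difference of at least 1, which left the main count at 3. On this count the interaction called 1 to 7 genes with single libraries left out. It called 7 when *siz1-2* MS replicate 3 was out and 1 when IAA replicate 1 or 3 of the mutant or MS replicate 2 of Col-0 was out. The response of SIZ1, uncalled, turned to −0.06 with quantile normalization (−0.0608) and median centring (−0.0619), and lay between −0.0544 and 0.1281 with single libraries left out. Same-number correlations were 0.282, 0.013 and 0.019 between the *siz1-2* groups and 0.119, 0.203 and 0.337 between the MS groups, but −0.139, −0.102 and −0.009 between the Col-0 groups, so numbers were not taken as pairs for the response or the interaction. The replicate block gave 586 higher and 514 lower DEGs, 1092 in common, and 2 interaction calls, without SAUR45 (adjusted p = 0.117 from limma). Of 308 named calls 248 held under every alternative and 60 were lost in at least 1. FPKM hold no counts, so the precision of low values cannot be stated. The cause of these shifts was not tested.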
